A study of Mus musculus with 15 samples.

Results

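The enzymes that place and remove methyl groups on lysine 36 of histone H3 (H3K36) were examined in EL4 cells through 8 of their genes. Nsd1, Ash1l, Setd2, Setmar and Smyd2 encode methyltransferases, and Kdm2a, Kdm2b and Kdm4a encode demethylases. The genes were chosen by the known function of their products, with earlier results of these data known. They are 8 of 21631 protein-coding genes, or of 49554 genes in all, that RefSeq places on 20 mouse chromosomes. For each gene, every interval lying in the gene span or within 10 kb of either end was collected, and the percent of the span covered by intervals was computed for each replicate.

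EL4 is a mouse T lymphocyte lymphoma line of strain C57BL/6N, and all libraries came from untreated cells of this 1 line. Chromatin immunoprecipitation followed by sequencing (ChIP-seq) was performed for H3K4me3, H3K9ac, H3K27ac, H3K36me2 and H3K27me3, and chromatin accessibility was measured by ATAC-seq, in which a transposase cuts open DNA. Each assay had 2 replicates, which the study calls technical, so that 12 of the 15 samples had a list of called intervals. Neither the input library nor the RNA-seq libraries entered the values given here. With 1 condition and 2 replicates, no test between groups exists, and each value is given per replicate.

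H3K36 is methylated in steps. NSD1 and ASH1L are known mainly for mono- and dimethylation, whereas SETD2 travels with elongating RNA polymerase II and adds the trimethyl mark. KDM2A and KDM2B remove the lower methyl states, and KDM4A removes methyl groups from the trimethyl state of H3K36 and H3K9. H3K36me2 spreads over gene bodies and intergenic chromatin, and it hinders the Polycomb enzyme that makes H3K27me3. H3K4me3 and acetylation of H3K9 and H3K27 are found at the starts of active genes.

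The sequence just before a gene start is shown for 4 of the genes, because these genes hold the extremes of H3K36me2 cover and because Kdm2b has starts far apart. RefSeq promoter entries were matched for 5 of the 8 genes (Setd2, Kdm2b, Kdm4a, Setmar and Smyd2), with 4 entries for Kdm2b and 1 for each of the others. Nsd1, Ash1l and Kdm2a had no entry. Each sequence holds the 250 bases before the listed start, 5′ to 3′ along the strand of the gene on GRCm38, and CpG dinucleotides are in capitals. Setmar lies on the plus strand at chr6:108064795-108065044, Kdm4a on the minus strand at chr4:118180044-118180293, and Setd2 on the plus strand at chr9:110532347-110532596. The outermost Kdm2b entry lies on the minus strand at chr5:122989100-122989349 and the innermost at chr5:122900351-122900600.
Setmar: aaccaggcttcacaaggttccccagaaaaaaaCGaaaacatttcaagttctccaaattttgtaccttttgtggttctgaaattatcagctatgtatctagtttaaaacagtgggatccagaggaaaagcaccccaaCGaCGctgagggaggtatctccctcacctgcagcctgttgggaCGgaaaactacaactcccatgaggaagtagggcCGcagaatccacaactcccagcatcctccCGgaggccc
Kdm4a: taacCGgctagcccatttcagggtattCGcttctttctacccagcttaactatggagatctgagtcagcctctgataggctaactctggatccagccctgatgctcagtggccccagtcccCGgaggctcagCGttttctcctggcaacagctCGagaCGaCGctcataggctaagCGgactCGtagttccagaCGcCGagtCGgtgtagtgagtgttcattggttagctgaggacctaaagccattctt
Setd2: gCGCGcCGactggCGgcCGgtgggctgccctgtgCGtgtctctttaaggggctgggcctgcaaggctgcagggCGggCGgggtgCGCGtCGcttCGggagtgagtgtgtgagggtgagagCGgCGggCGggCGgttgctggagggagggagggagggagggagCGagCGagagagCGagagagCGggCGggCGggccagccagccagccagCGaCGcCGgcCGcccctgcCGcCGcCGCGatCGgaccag
Kdm2b, outermost start: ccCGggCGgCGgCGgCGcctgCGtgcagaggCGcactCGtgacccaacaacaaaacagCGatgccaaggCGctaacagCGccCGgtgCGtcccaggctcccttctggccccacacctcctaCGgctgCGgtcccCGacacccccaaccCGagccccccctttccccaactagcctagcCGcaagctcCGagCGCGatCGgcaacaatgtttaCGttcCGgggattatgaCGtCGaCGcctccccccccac
Kdm2b, innermost start: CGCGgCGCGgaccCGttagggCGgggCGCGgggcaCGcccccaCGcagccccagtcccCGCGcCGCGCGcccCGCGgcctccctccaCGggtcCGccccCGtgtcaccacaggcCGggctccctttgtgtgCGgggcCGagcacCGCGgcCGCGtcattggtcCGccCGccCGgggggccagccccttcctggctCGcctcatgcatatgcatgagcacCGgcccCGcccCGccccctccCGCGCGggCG

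Setmar had the fewest CpG of these entries, with 6 in 250 bases and a GC content of 48.4%. Kdm4a had 12 CpG and a GC content of 53.6%, Setd2 had 31 CpG and 76.0%, and the outermost and innermost Kdm2b entries had 27 and 38 CpG. Smyd2, not printed, had 34 CpG. The median over 21045 entries of protein-coding genes was 10.0 CpG (quartiles 3.00 and 19.0), so that Setmar was below the median, Kdm4a a little above it and the other printed entries above the upper quartile. The letters CCAAT or their reverse complement ATTGG were found in the Kdm4a entry and in both inner Kdm2b entries, and in 35.6% of the entries of protein-coding genes. The letters TATAAA were found on neither strand in any of the 8 entries, against 11.7% of the entries of protein-coding genes. These matches describe the letters in the window only.

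H3K36me2 cover differed widely among these genes of H3K36 enzymes, from 97.5% of the span in Kdm4a to no called interval in Setmar. The median over the 8 genes was 61.6%, against 1.47% over 21631 protein-coding genes and 14.1% over the 13890 protein-coding genes of at least 10 kb. At least 50% of the span was covered in both replicates in 5 of the 8 genes (Ash1l, Kdm2a, Kdm2b, Kdm4a and Smyd2), in 24.7% of all protein-coding genes and in 28.5% of those of at least 10 kb. Setmar was the 1 gene with no H3K36me2 interval in either replicate, which was the case for 48.7% of protein-coding genes. The 8 genes ranged from 12.1 to 129 kb in length, and 7 of them were longer than most protein-coding genes.

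Kdm4a and Kdm2b stood at the top of the order and Setd2 and Setmar at its bottom. The mean ± SD (n = 2) was 97.5 ± 0.657% for Kdm4a, 94.5 ± 3.46% for Kdm2b, 68.3 ± 2.97% for Ash1l and 63.2 ± 3.83% for Kdm2a. It was 60.0 ± 12.5% for Smyd2, 52.9 ± 12.9% for Nsd1 and 21.6 ± 5.61% for Setd2. Replicate ranges overlapped between Kdm2a and Smyd2 and between Smyd2 and Nsd1, so these neighbours in the order did not differ beyond their spread. Kdm4a and Kdm2b were only 0.0492 percentage points apart at their nearest replicates, and Ash1l and Kdm2a 0.246 points. Clear gaps of 21.7, 18.2 and 17.6 points separated Kdm2b from Ash1l, Nsd1 from Setd2 and Setd2 from Setmar. Less mean cover than in Kdm4a was found in 98.2% of protein-coding genes of at least 10 kb, and less than in Setd2 in 53.7% of them.

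**Figure D1:**
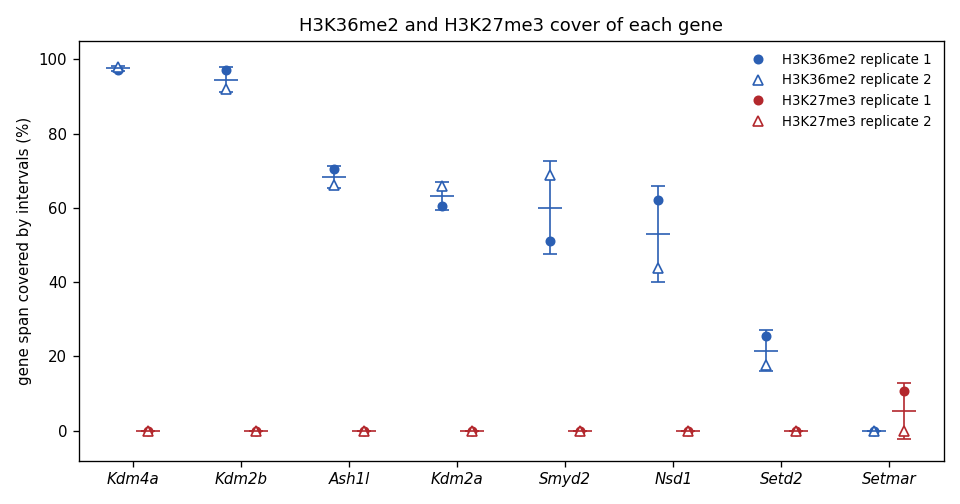
Percent of each gene span covered by H3K36me2 (blue) and H3K27me3 (red) intervals in replicate 1 (filled circles) and replicate 2 (open triangles), with the mean and SD of 2 replicates as bars. H3K36me2 falls from 97.5% in Kdm4a to 0 in Setmar, which is the 1 gene with any H3K27me3 (10.6% in replicate 1).

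Nsd1, which encodes a methyltransferase with H3K36 as its main known substrate, spans chr13:55209782-55318325. H3K36me2 covered 62.0% of it in replicate 1 and 43.8% in replicate 2, with a Jaccard index, which is the bases covered in both replicates over the bases covered in any, of 0.628. The cover was unequal along the gene in both replicates. When the gene was divided into 10 equal parts from the lower coordinate, the first 2 parts held no H3K36me2 in either replicate. The first 5 parts together were covered by 29.6 and 11.5%, and the last 5 by 94.5 and 76.0%. Near the lower end, H3K4me3 intervals of 2161 and 2276 bp began 1886 and 1809 bp inside the gene, without any H3K36me2. Their distance to the next H3K36me2 above was 24572 bp in replicate 1 and 37334 bp in replicate 2.

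Nsd1 also held H3K4me3 deeper in the gene, at 37.8 kb (1957 and 1848 bp wide) and at 45.4 kb (436 and 330 bp wide) from the lower end. H3K27ac touched all 3 H3K4me3 intervals of the gene in both replicates, whereas H3K9ac touched those near the lower end and at 37.8 kb and not the one at 45.4 kb. ATAC-seq gave no interval in the gene in replicate 1 and 2 short ones in replicate 2, of 200 bp at 39.5 kb and 236 bp at 45.5 kb. The H3K4me3 interval near the lower end of Nsd1 thus lacked ATAC-seq in both replicates. Past the upper end, further H3K4me3 intervals lay 111 kb from the lower end, where RefSeq places Rab24, 897 bp beyond Nsd1, and Prelid1.

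Ash1l, a Trithorax group methyltransferase gene, spans chr3:88950414-89079375 and overlaps the end of Dap3 by 800 bp. Its H3K36me2 cover was 70.4% in replicate 1 and 66.2% in replicate 2, but it was made of 11 and 16 intervals whose median widths were 7.80 and 3.90 kb. The replicates agreed in amount more than in position, since 48.5% of the span was covered in both and 88.1% in either. A single H3K4me3 interval of 3201 and 3155 bp lay over the lower end, shared with Dap3, together with H3K9ac, H3K27ac and ATAC-seq. Of this interval, 299 bp carried H3K36me2 in replicate 1 and 1973 bp in replicate 2.

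Setd2, the gene of the enzyme that trimethylates H3K36, spans chr9:110532500-110618633 and had the lowest H3K36me2 cover of the 7 genes with any. The cover was 25.6% in replicate 1 and 17.6% in replicate 2, in 5 intervals each, of which 4 and 3 touched an interval of the other replicate. The replicate 1 interval over the upper gene end met replicate 2 only beyond the gene. Only 4.18% of the span was covered in both replicates and 39.0% in either, a Jaccard index of 0.107 against 0.568 for the whole H3K36me2 lists. The widest interval touching Setd2 measured 6.80 kb in replicate 1 and 4.80 kb in replicate 2, near the list medians of 5.40 and 5.00 kb. The H3K36me2 of Setd2 was therefore sparse, and most covered bases differed between the replicates. At the listed start, H3K4me3 of 2448 and 2352 bp was free of H3K36me2, which began 5869 and 4048 bp further into the gene.

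Setmar encodes a SET domain methyltransferase, which in primates is fused to a transposase, and spans chr6:108065045-108077127. It had no H3K36me2 interval in the gene or within 10 kb in either replicate. The whole stretch without H3K36me2 in either list ran over 0.872 Mb, chr6:107226200-108098200, and held Lrrn1 and Setmar as its protein-coding genes. Of 40421 such gaps between H3K36me2 intervals, 531 (1.31%) were at least as long, and the median gap was 4.00 kb. Setmar lay near the upper edge of this stretch, with H3K36me2 resuming 68054 bp above its H3K4me3 in replicate 1 and 32531 bp in replicate 2. H3K27me3 covered 29.1 and 36.5% of the stretch.

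The start of Setmar nevertheless carried H3K4me3, both acetyl marks and ATAC-seq. H3K4me3 there was 835 bp wide in replicate 1 and 755 bp in replicate 2, H3K9ac 301 and 252 bp, H3K27ac 307 and 301 bp, and ATAC-seq 579 and 556 bp. The H3K4me3, H3K9ac and H3K27ac intervals were the narrowest at a start window among the 8 genes. This H3K4me3 interval and this ATAC-seq interval were the only ones in the whole 0.872 Mb stretch in each replicate. H3K27me3 flanked the gene, with intervals from position -6244 to 355 bp and from 11156 to 14355 bp relative to the start in replicate 1. In replicate 2 they ran from -5844 to -1445 bp and from 13156 to 16555 bp, outside the gene. H3K27me3 thus overlapped the H3K4me3 at the start in replicate 1 only.

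Smyd2, whose product methylates histone and other proteins, spans chr1:189880492-189922495 on the minus strand. H3K36me2 covered 51.2% of it in replicate 1 and 68.8% in replicate 2, with 3 intervals in each. The difference lay mainly in the middle of the gene, where parts 5 to 7 of 10 from the start were uncovered in replicate 1 and covered by 69.2, 100 and 100% in replicate 2. Around the start the replicates were alike, with no H3K36me2 in the first of the 10 parts. H3K4me3 of 1837 and 1797 bp at the start had its nearest H3K36me2 3413 bp away inside the gene in replicate 1 and 6061 bp in replicate 2. On the outer side, a stretch of 0.899 Mb free of H3K36me2 in either list, chr1:189917800-190816600, began within Smyd2 and went on over Prox1 into Rps6kc1. As in the Setmar stretch, the H3K4me3 at the start of Smyd2 was the 1 interval of that mark in it, and H3K27me3 covered 6.99 and 11.5% of it, none of this in the window of Smyd2.

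**Figure D2:**
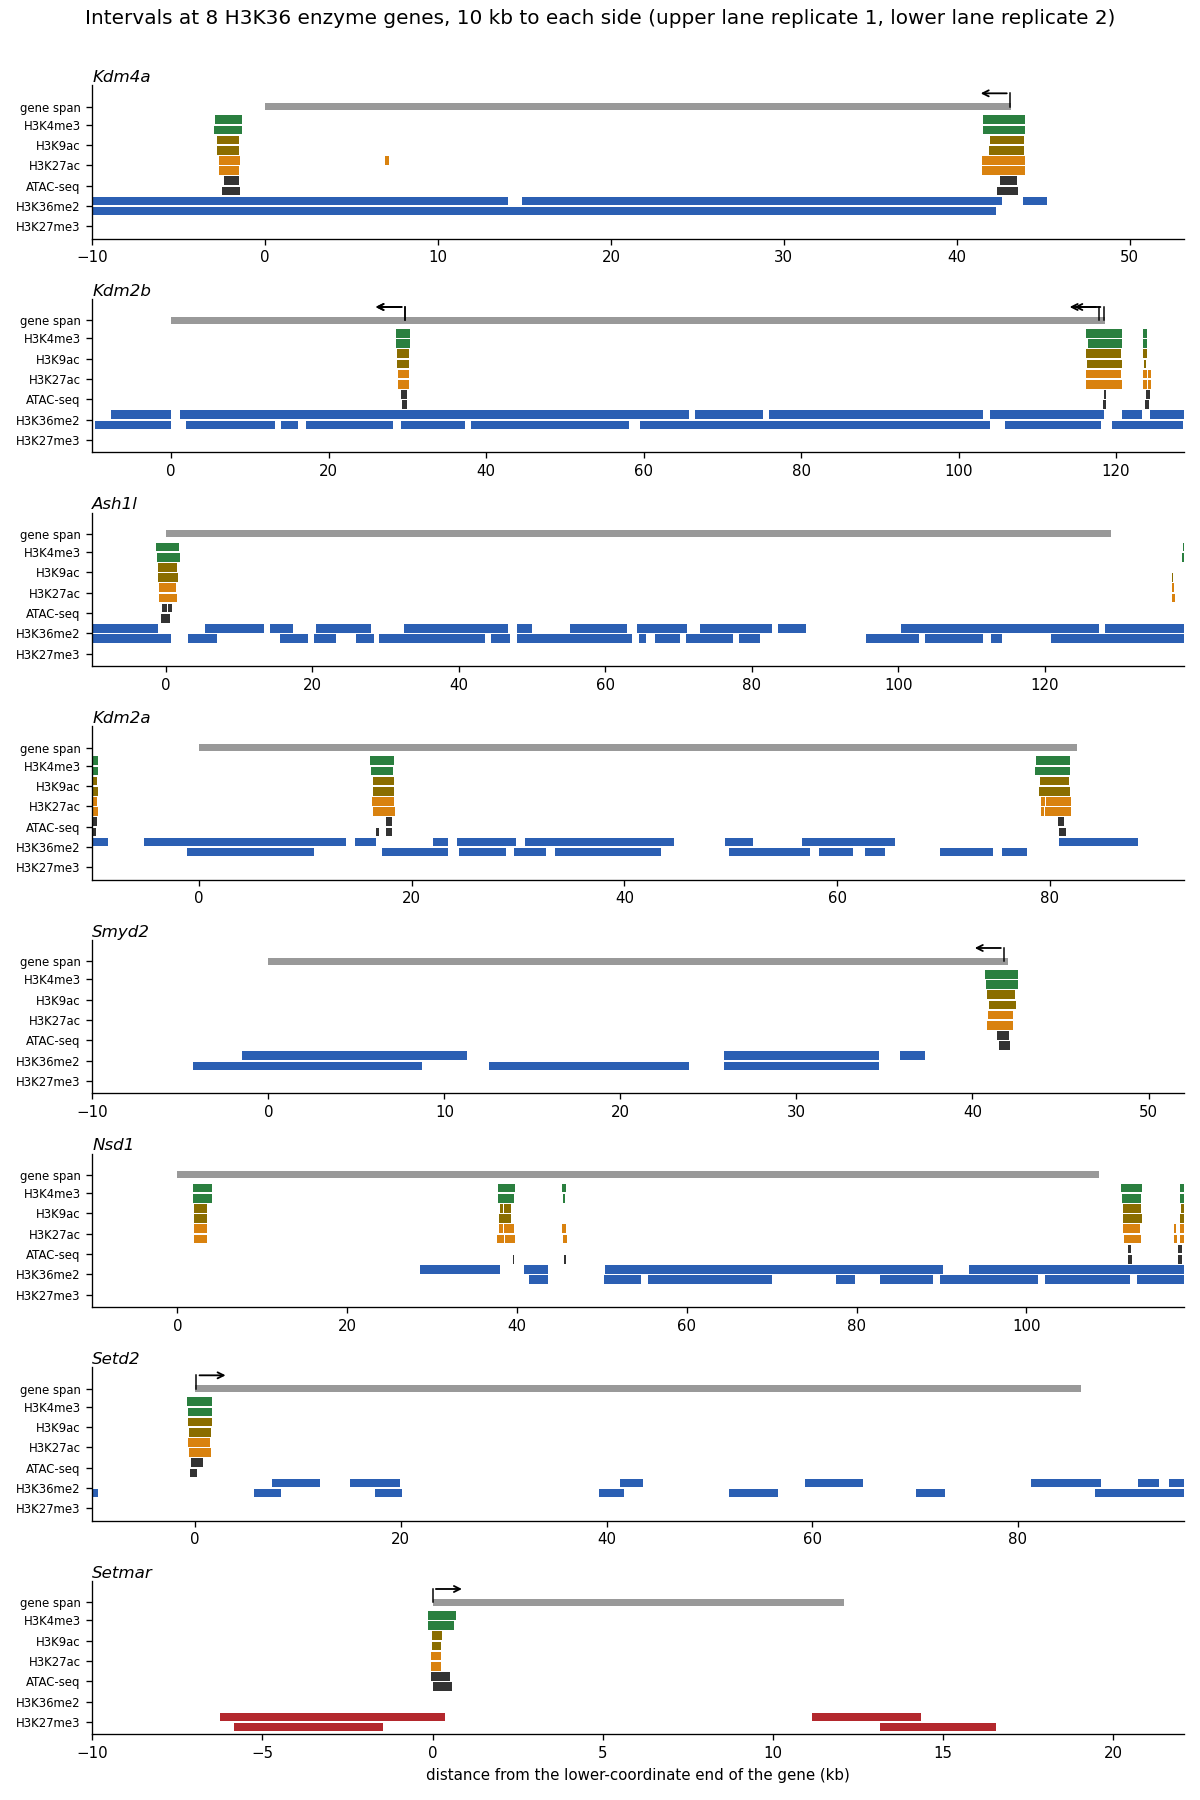
Intervals of the 6 assays in each gene span and 10 kb to either side, with replicate 1 in the upper and replicate 2 in the lower lane of each assay, against the distance from the lower-coordinate end of the gene in kb; arrows mark starts listed by RefSeq. H3K36me2 (blue) fills Kdm4a and Kdm2b and is missing from the first 2 of 10 parts of Nsd1 and from all of Setmar. H3K27me3 (red) appears only in the window of Setmar, where it crosses both gene ends in replicate 1 and lies outside the gene in replicate 2.

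Among the demethylase genes, Kdm2a spans chr19:4316144-4398721 and encodes a protein that binds unmethylated CpG and removes H3K36me2. Its H3K36me2 cover was 60.5% in replicate 1 and 65.9% in replicate 2, in 8 and 10 intervals, with 44.6% of the span covered in both. The first 5 of 10 parts from the lower coordinate were covered by 81.1 and 78.2% and the last 5 by 39.9 and 53.7%. The less covered part was that of the upper end, where H3K4me3 of 3177 and 3251 bp lay together with H3K9ac, H3K27ac and ATAC-seq. RefSeq places 9430078G10Rik over the same end, so the interval cannot be given to 1 of these genes. A second H3K4me3 interval of 2218 and 2073 bp, with both acetyl marks and ATAC-seq, lay inside Kdm2a, 16.1 and 16.2 kb from the lower end.

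Kdm2b, the close relative of Kdm2a that also brings a Polycomb complex to CpG islands, spans chr5:122870664-122989270 on the minus strand. H3K36me2 covered 97.0% in replicate 1 and 92.1% in replicate 2, and 90.0% of the span was covered in both. Intervals of 64.6 and 44.4 kb were the widest touching the gene, and 74 of 38897 and 278 of 40826 intervals of the lists were at least as wide. Kdm2b had active intervals at both of its groups of listed starts. At the outer starts H3K4me3 was 4577 and 4424 bp wide, and at the inner starts, 29.7 kb from the lower end, it was 1713 and 1711 bp wide. All 1713 bp of the inner interval carried H3K36me2 in replicate 1 and 1170 of 1711 bp in replicate 2, so that the CpG-rich innermost entry printed above was wholly covered by H3K4me3, ATAC-seq and H3K36me2 intervals in both replicates. The outermost printed entry was covered by H3K4me3 and ATAC-seq in both replicates and by H3K36me2 over 100 of 250 bases in replicate 1 and none in replicate 2. These lists come from populations of cells, so intervals that overlap need not be on the same chromosome copies, and a mark in few cells cannot be told apart from a weak mark in all.

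Kdm4a, which encodes a demethylase of trimethylated H3K9 and H3K36, spans chr4:118136957-118180090 on the minus strand and was the gene most completely covered. H3K36me2 lay over 97.0% of it in replicate 1 and 97.9% in replicate 2, and 96.1% was covered in both, a Jaccard index of 0.972. The cover belonged to domains far larger than the gene. In replicate 1 an interval of 127 kb, chr4:118024401-118150999, entered the gene from its end, and 5 of 38897 intervals were at least as wide. In replicate 2 an interval of 93.2 kb, chr4:118086001-118179199, crossed nearly all of the gene, and 19 of 40826 were at least as wide. Both ran on into the neighbouring St3gal3, whose span lies 1984 bp away. At the start, H3K4me3 was 2439 and 2404 bp wide, of which 1238 and 717 bp carried H3K36me2, and the 250 bases printed above held none. Outside the start, H3K36me2 resumed only 179088 and 177714 bp beyond the H3K4me3, apart from 1 interval of 1.40 kb that touched it in replicate 1.

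**Figure D3:**
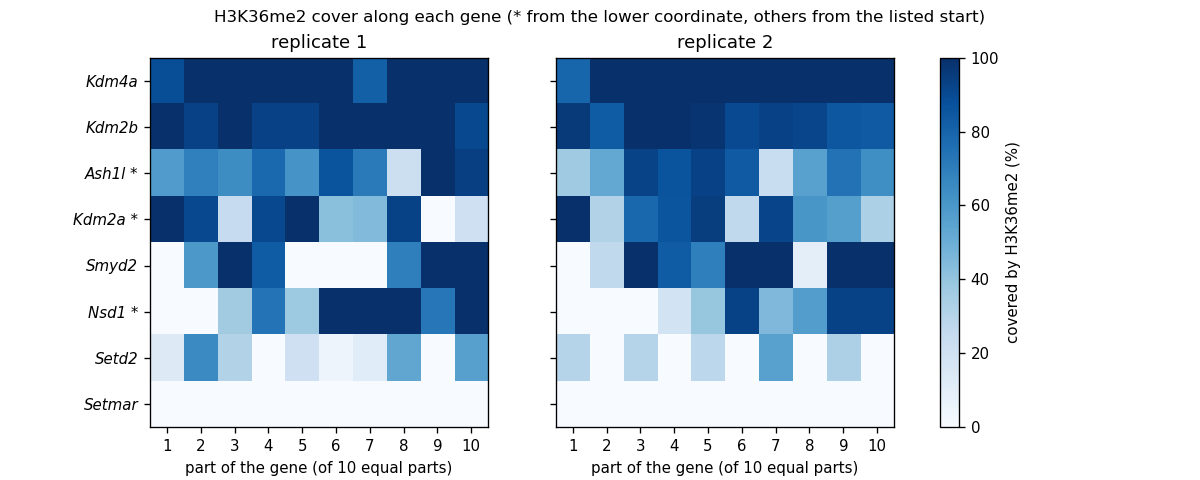
Percent of each of 10 equal parts of the gene covered by H3K36me2 in replicate 1 (left) and replicate 2 (right), with parts counted from the listed start, or from the lower coordinate for the genes marked with an asterisk; darker blue is more cover. Kdm4a and Kdm2b are dark throughout, Smyd2 has 0 in its first part, Nsd1 has 0 in its first 2 parts and Setmar has 0 in all.

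Active marks touched the start windows of all 8 genes, but those of Nsd1 only near the window edge. Start windows ran from 3 kb before to 2 kb after each listed start, and for Nsd1, Ash1l and Kdm2a, whose strand was not given, both gene ends were taken, which can include ends of neighbouring genes. H3K4me3, H3K9ac and H3K27ac each touched the windows of 8 genes in both replicates, against 46.3, 45.7 and 46.0% of protein-coding genes. ATAC-seq did so at 7 genes, all but Nsd1, against 41.7%. At the lower end of Nsd1, H3K9ac began 1985 and 1981 bp and H3K27ac 1936 and 1942 bp inside the gene. With windows of 1 kb to either side, the count was 7 for each of H3K4me3, H3K9ac and H3K27ac. H3K36me2 touched the windows of 5 genes (Nsd1, Ash1l, Kdm2a, Kdm2b and Kdm4a) in both replicates, against 29.0% of protein-coding genes. Among protein-coding genes of at least 10 kb, a length all 8 genes reach, the shares were 53.8% for H3K4me3, 53.1% for H3K9ac, 53.3% for H3K27ac, 48.8% for ATAC-seq and 30.9% for H3K36me2. Of the 5 genes with H3K36me2, only Kdm2b and Kdm4a have a listed start, and for Nsd1 the touched end was the upper one, toward Rab24. For Kdm2a only the lower end was touched in replicate 2, whereas the H3K4me3 in its windows lay at the upper end. The H3K36me2 share was 26.7% of protein-coding genes with a listed start and 38.1% of those where both ends were taken.

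H3K27me3 was listed in the window of Setmar alone. No gene of the 8 had a base of its span under H3K27me3 in both replicates, against 16.2% of protein-coding genes. The span held no H3K27me3 in either replicate in 7 genes, or 87.5%, and in 77.4% of protein-coding genes. The start window of Setmar was the 1 touched in both replicates, against 11.0% of protein-coding genes. With 8 genes, these counts lie near the shares over all genes. Over all windows, 255 intervals were listed, of which 99 were H3K36me2 and 4 H3K27me3.

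**Figure D4:**
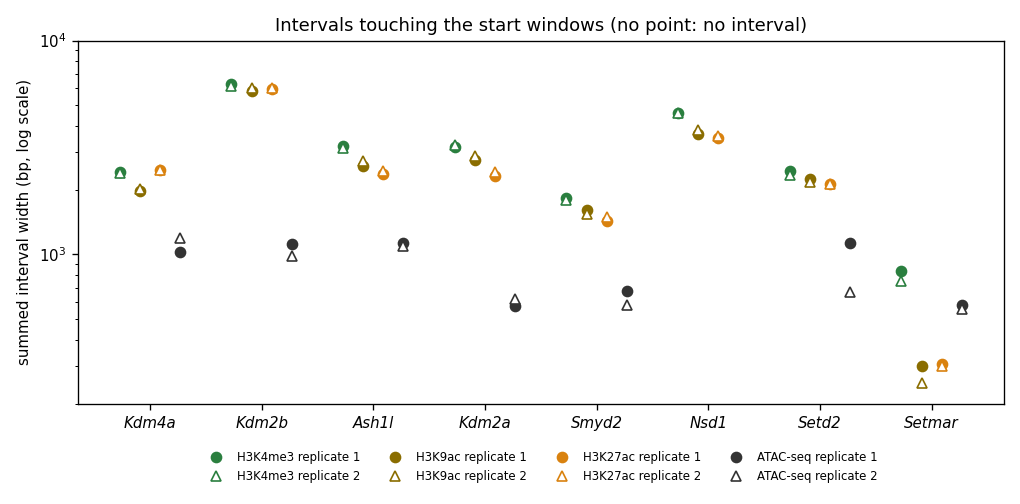
Summed width in bp, on a log axis, of the H3K4me3, H3K9ac, H3K27ac and ATAC-seq intervals touching the start windows of each gene in replicate 1 (filled circles) and replicate 2 (open triangles). Kdm2b sums its outer and inner starts and Nsd1 both of its ends, Nsd1 has no ATAC-seq point, and Setmar has the narrowest H3K4me3, H3K9ac and H3K27ac, with 252 to 835 bp.

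H3K36me2 was less frequent where H3K4me3 lay. In the 8 windows, 38.5% of the bases under H3K4me3 also carried H3K36me2 in replicate 1 and 38.0% in replicate 2, against 62.7 and 59.1% of the other bases. Over the windows of all protein-coding genes of at least 10 kb the values were 24.9 and 21.0% under H3K4me3 and 22.3 and 22.1% elsewhere. The difference in the 8 genes had the same sign in 7 of them in both replicates, while Setmar had none of the mark. It was not tested whether these genes differ in this from others. Of the 18 H3K4me3 intervals in the windows, all touched H3K27ac and 17 touched H3K9ac in each replicate, against 89.3 and 90.4% of all H3K4me3 intervals for H3K27ac and 85.5 and 86.4% for H3K9ac. ATAC-seq touched 15 and 17 of the 18, against 67.7 and 71.9% of all H3K4me3 intervals. The 3 without ATAC-seq in replicate 1 and the 1 in replicate 2 all lay in Nsd1.

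The wider H3K36 pathway was described in 3 lists. Among 8 genes taken as other enzymes, whose action on H3K36 was not checked here, median H3K36me2 cover was 43.8%. Of these genes, 3 were over 50% in both replicates, against 24.7% of protein-coding genes, and 1 had none, against 48.7%. Kdm4b, a relative of Kdm4a, had 99.0% in each replicate and Nsd2, a relative of Nsd1, 92.1 and 72.4%. At the lower end, Prdm9, the methyltransferase that marks meiotic recombination sites, had 0 and 6.57%, and Riox1 had 0 in both. H3K4me3, H3K9ac, H3K27ac and ATAC-seq were found at the starts of 7 of the 8, Kdm8 being the exception, against 41.7 to 46.3% of protein-coding genes. Among 12 reader genes, whose products bind methylated H3K36, the median was 66.9%. Cover was over 50% in both replicates in 7 of the 12, against 24.7% of protein-coding genes, and absent in 2, against 48.7%. Phf1 and Phf19, whose products join Polycomb complexes, had 100% in each replicate and 90.3 and 95.1%, and Morf4l1 and Msh6 had 0. All 12 had H3K4me3, H3K9ac, H3K27ac and ATAC-seq at the start, against the same 41.7 to 46.3% of protein-coding genes.

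The third list held 8 partners of the enzymes, such as Polycomb subunits that act with KDM2B and elongation factors that act with SETD2. Their median cover was 40.1%, with 2 genes over 50% in both replicates, near the share of 24.7% over protein-coding genes. Ring1 had 100 and 92.8% and the elongation factor gene Supt6 96.5 and 88.3%, while the means of Usp7 and Bcor were 22.2 ± 3.93% and 5.41 ± 4.00% (SD, n = 2). Bcor lies on chromosome X, whose reads were discarded according to the study's methods although the lists hold intervals on it, and the part of this step in its low cover was not tested. Active marks were at the starts of 7 of the 8, Pcgf1 being the exception, against 41.7 to 46.3% of protein-coding genes. In none of the 3 lists did a gene have H3K27me3 in its span in both replicates, against 16.2% of protein-coding genes. The range from full to absent H3K36me2 was thus also seen among genes of these lists, and it is not particular to them. Over protein-coding genes of at least 10 kb, the quartiles of cover were 0 and 64.9%, and 38.3% of genes had none. Some extremes of the lists were short genes: Riox1 spans 2.35 kb, Phf1 4.78 kb and Ring1 3.89 kb.

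The gene of at least 10 kb with the most similar cover over the 12 lists was identified for each of the 8, by Euclidean distance in percentage points. The covers were not scaled. Among the 8 genes, H3K36me2 reached 97.9% of a span in a replicate, and no other mark or ATAC-seq exceeded 10.6%. H3K36me2 therefore had the largest weight in this likeness. Kdm4a was nearest to Spg7 (1.94 points), Kdm2b to Cep131 (1.68), Ash1l to Apaf1 (0.869) and Setd2 to Csrnp3 (1.56). Kdm2a was nearest to Zfp51 (2.31), Smyd2 to Zfp607a (1.95), Nsd1 to Smpd4 (2.32) and Setmar to Mmel1 (6.22). No gene had another of the 8 as its nearest, but with 13890 genes compared this says nothing about the 8 as a set. The closest pair among the 8 was Kdm2b and Kdm4a, 6.20 points apart. Even so, 204 genes were nearer to Kdm2b than Kdm4a was, and 220 were nearer to Kdm4a than Kdm2b was.

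The T lymphocyte label was checked against marker genes. H3K4me3, H3K9ac and H3K27ac lay at the starts of all 6 T lineage markers in both replicates, and ATAC-seq at 5 of them, all but Cd3e. The shares over protein-coding genes were 46.3, 45.7, 46.0 and 41.7%. Cd3g ends at chr9:44980431 and Cd3d begins at chr9:44981769, so the windows of these 2 genes may share intervals. None of 3 B lineage and 3 myeloid markers had any of these in both replicates. The lists held 17519 to 46015 intervals, and the Jaccard index of replicates ranged from 0.498 for H3K27me3 to 0.922 for H3K4me3. No list gives reads or scores, so the depth behind an interval is unknown, and a gene without an interval may still carry the mark below the calling threshold.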

How the data were processed

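ChIP-seq and ATAC-seq interval lists of EL4 cells were used. The authors aligned reads with STAR 2.5, kept unique alignments and used Picard against PCR duplicates. Narrow marks and ATAC-seq were called with macs2 and H3K36me2 and H3K27me3 with Epic, with the input as control for ChIP-seq. The deposited lists give the chromosome, start and end of each interval per replicate, in bp, with no score, count or normalization. Build GRCm38 is named in the labels. Broad intervals lie on 200 bp bins, which limits the precision of their ends.

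Gene spans and promoter entries were those of RefSeq GRCm38.p6. RefSeq promoter entries were given for 79.9% of protein-coding genes, and for genes without one both ends were used. The table holds whole spans, so exons and introns were not told apart. An interval touched a window when it shared 1 bp. Cover was computed in Python 3.11.15 with numpy 2.4.6, and figures with matplotlib 3.10.9. Covered bases were checked against bedtools 2.31.1 in 259572 gene and list pairs, of which 0 differed, and the counting was tested on simulated intervals. No test was made. The named genes were the 8 members, the most similar gene of each, and the 2 highest and 2 lowest genes of each pathway list by mean H3K36me2 cover. Neighbouring genes, and the genes that were exceptions in a count (Kdm8, Pcgf1 and Cd3e), were named after their values were seen. The members and lists were chosen with earlier results of these data known. Alternatives were bases in either or both replicates, each replicate left out, joined intervals, wider gene spans, other windows, overlaps and cover minimums, and other gene backgrounds.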

Additional observations from a re-analysis of the deposited data

How the results depend on the processing

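No paired analysis was possible because no result comes from a test. The median H3K36me2 cover of the 8 genes (61.6%) was 80.1% for bases in either replicate, 43.2% for bases in both, 61.3 to 66.1% with 1 replicate left out and 54.8% for spans with 10 kb to either side. The count of genes with H3K27me3 in their span in both replicates (0) was 1 with either replicate, without replicate 2 and with 10 kb added, Setmar each time, and 0 without replicate 1. The count with H3K27me3 at the start (1) was 0 with windows of 1 kb to either side. The other 45 alternative values of the counts and the median stayed within 1.5 times the count or 1 SD of the median. Among them, windows of 1 kb gave 7 genes for H3K4me3, H3K9ac and H3K27ac and 6 for ATAC-seq. An overlap of at least 200 bp gave 7 for H3K9ac and H3K27ac. Over all genes of the table, in place of protein-coding genes, the background shares fell to 27.2% for H3K4me3, 26.6% for H3K9ac, 27.3% for H3K27ac, 23.7% for ATAC-seq and 21.9% for H3K36me2 at the start and to 16.0% for H3K36me2 over at least 50% of the span. For H3K27me3 at the start the share was 12.2%. In genes of at least 10 kb, H3K27me3 shares were 10.3% at the start and 19.6% in the span. Taking both gene ends for every gene was chosen after seeing the data. It gave 7 genes with H3K36me2 at the start in both replicates, against 5 in the main setting, and left the other counts at the start unchanged. Unknown depth limits every statement on a gene without an interval.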
